A study of Mus musculus with 9 samples.

Results

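The subject is a set of 10 non-coding snoRNA host genes (Gas5, Snhg1, Snhg3, Snhg4, Snhg5, Snhg6, Snhg8, Snhg12, Snhg15 and Snhg20) whose spliced RNAs are known as targets of nonsense-mediated decay, and the question is how their RNA levels stood in mouse embryonic fibroblasts under hyperosmotic stress. The members were taken by gene name, by a rule that uses no measured value, although the set was proposed with earlier results of these data known. Of the 10, 7 had a row under their own symbol among the 35275 genes of the table, and Snhg15 and Snhg20 were found by their Ensembl identifiers, ENSMUSG00000085156 and ENSMUSG00000086859, under the older symbols Gm11974 and 2810008D09Rik. No row was found for Snhg8 under its symbol or its Ensembl identifier, so its RNA level was not analysed here and only its annotation is described. Of the 9 members with a row, 8 passed the filter on low counts and were tested, and Snhg3 was listed at 0 counts in each of the 9 libraries.

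The cells were wild type C57Bl/6 mouse embryonic fibroblasts (MEFs), connective tissue cells grown in culture. All were grown in DMEM with 10% fetal bovine serum, and the controls stayed in this iso-osmolar medium of 300 mOsm, while treated cells received sucrose for 3 h, either 200 mM for a total of 500 mOsm or 300 mM for a total of 600 mOsm. Each of these 3 conditions was sequenced as 3 libraries from poly-T selected RNA, 9 in all, and nothing in the descriptions says whether the libraries came from separate cultures, so the p-values measure only the spread between these libraries. The selection keeps RNAs with a poly(A) tail, so the values below are those of the host RNAs, and the snoRNAs themselves were not analysed here.

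A snoRNA host gene is transcribed as a long precursor whose introns hold small nucleolar RNAs. The introns are cut out and trimmed to the snoRNAs, which join proteins to form snoRNPs: those of the box C/D class guide methylation of ribosomal RNA and those of the box H/ACA class guide pseudouridylation. The joined exons leave the nucleus as a spliced RNA that encodes no known protein, but ribosomes can engage it at a short reading frame. A stop codon that lies well upstream of an exon junction marks an RNA for nonsense-mediated decay, a pathway that acts during translation, and RNAs such as that of Gas5 are known to accumulate when translation is blocked.

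The members' own transcripts in the GENCODE annotation (vM21, genome build GRCm38) show this arrangement, and the stretch from the transcript start to the first stop codon is printed here for the 7 tested members whose sequence was used, because it holds the short frame that ribosomes would meet first. For each gene the transcript is the one with the most exons among those without a retained intron, letters run 5′ to 3′, and capitals mark the first ATG and the stop codon in its frame.
Gas5: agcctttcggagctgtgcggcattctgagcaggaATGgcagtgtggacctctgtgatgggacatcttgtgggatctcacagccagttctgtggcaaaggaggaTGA
Snhg1: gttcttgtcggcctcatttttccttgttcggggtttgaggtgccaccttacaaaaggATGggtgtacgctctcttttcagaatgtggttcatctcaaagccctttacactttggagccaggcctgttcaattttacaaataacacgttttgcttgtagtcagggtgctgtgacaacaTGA
Snhg5: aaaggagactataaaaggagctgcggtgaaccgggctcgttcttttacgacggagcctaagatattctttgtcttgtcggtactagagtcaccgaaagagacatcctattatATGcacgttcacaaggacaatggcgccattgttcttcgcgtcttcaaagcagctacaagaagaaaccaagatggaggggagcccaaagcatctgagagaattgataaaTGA
Snhg6: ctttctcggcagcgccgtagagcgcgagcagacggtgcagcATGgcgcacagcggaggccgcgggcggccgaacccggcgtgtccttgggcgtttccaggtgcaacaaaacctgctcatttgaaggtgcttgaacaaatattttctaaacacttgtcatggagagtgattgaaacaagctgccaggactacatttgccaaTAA
Snhg12: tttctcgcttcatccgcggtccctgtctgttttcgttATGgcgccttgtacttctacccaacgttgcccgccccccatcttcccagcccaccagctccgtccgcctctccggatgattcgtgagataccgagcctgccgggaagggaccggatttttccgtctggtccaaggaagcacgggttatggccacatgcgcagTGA
Snhg15: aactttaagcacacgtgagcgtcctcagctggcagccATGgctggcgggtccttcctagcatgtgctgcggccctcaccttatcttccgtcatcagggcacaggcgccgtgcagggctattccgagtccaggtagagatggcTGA
Snhg20: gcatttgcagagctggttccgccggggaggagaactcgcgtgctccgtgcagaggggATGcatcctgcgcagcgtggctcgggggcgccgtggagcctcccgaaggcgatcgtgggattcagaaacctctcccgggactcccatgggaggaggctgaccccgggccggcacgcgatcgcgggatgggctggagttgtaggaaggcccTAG

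The frames are short. That of Gas5 has 23 codons before its stop in an RNA of 502 bases and 12 exons, and 7 exon junctions lie more than 50 bases beyond the stop. The frame of Snhg1 has 40 codons in 605 bases, with 5 such junctions, that of Snhg5 has 36 codons in 781 bases, with 2, and that of Snhg6 has 53 codons in 473 bases, with 1. Snhg12 has a frame of 54 codons with 3 such junctions, Snhg15 one of 35 codons with 3, and Snhg20 one of 50 codons with 2. Snhg3 and Snhg8 also had at least 1 junction in this position, so 9 of 9 members with a sequence did, with a median frame of 40 codons. Among 8622 multi-exon non-coding genes of the same annotation, taken by the same choice of transcript, 73.8% had such a junction and the median frame was 17 codons. When every annotated transcript was counted instead, the share was 75% of 44 for the members and 74% of 12980 for the non-coding genes. Counted over transcripts, an exon junction far beyond the first stop was therefore about as frequent among non-coding genes in general as among the members.

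**Figure D1:**
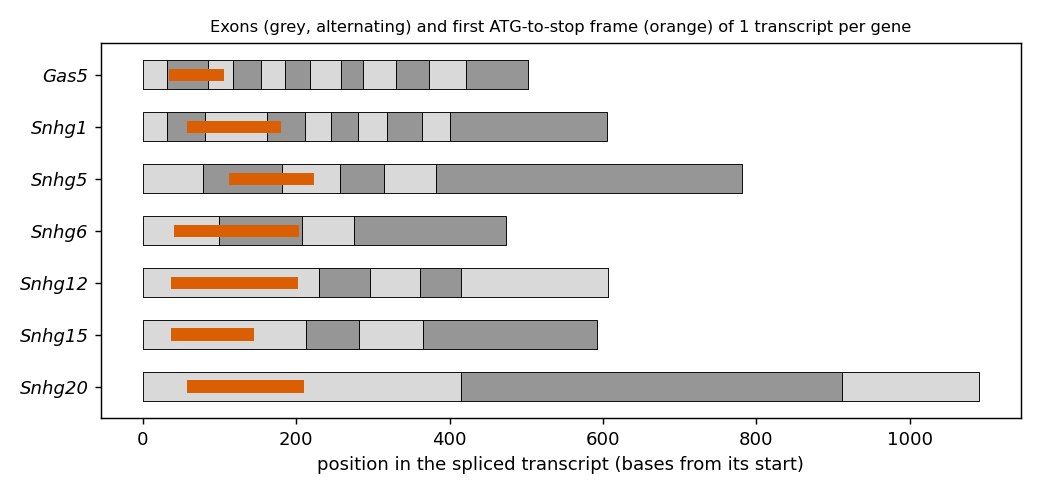
Exon structure of 1 spliced transcript for each of 7 tested members. The horizontal axis is the position in the transcript in bases from its start, grey blocks are exons in alternating shades, and the orange bar is the first frame from ATG to stop, which ends ahead of at least 1 exon junction by more than 50 bases in each transcript.

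The introns of 9 members hold 29 loci on the same strand annotated as snoRNA or scaRNA (small Cajal body-specific RNA). All of them lie inside an intron of the transcript used above, and Mir5117 in Gas5, named as a microRNA, is among them. Gas5 carries 9 and Snhg1 carries 8, Snhg12 carries 4, Snhg3 and Snhg5 carry 2 each, and Snhg6, Snhg8, Snhg15 and Snhg20 carry 1 each. By the names in the annotation, Snord50a and Snord50b in Snhg5 and Snord87 in Snhg6 are of the box C/D class, Snora9 in Snhg15 is of the box H/ACA class, and Snhg12 holds both classes. A representative of each class is printed to show what these introns release, with the C box TGATGA and the D box CTGA of the C/D class and the ACA near the end of the H/ACA class in capitals. The letters were searched on the transcribed strand only. Snord50a and Snord50b have 72 bases each and differ at 1 base.
Snord50a, in Snhg5: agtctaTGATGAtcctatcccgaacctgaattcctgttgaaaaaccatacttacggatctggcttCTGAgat
Snord87, in Snhg6: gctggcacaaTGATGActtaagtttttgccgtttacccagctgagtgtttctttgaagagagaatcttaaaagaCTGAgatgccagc
Snora9, in Snhg15: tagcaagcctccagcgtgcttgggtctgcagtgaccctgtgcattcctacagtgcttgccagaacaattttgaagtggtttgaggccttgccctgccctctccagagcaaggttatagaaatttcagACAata

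Several snoRNA hosts are known for a start site rich in pyrimidines, a feature they share with ribosomal protein genes. The window from 20 bases before to 20 bases after each RefSeq start (GRCm38.p6) was therefore searched, on the transcribed strand only, for a run of C and T that opens with C and has at least 6 bases. Such a run was found for Gas5, Snhg8 and Snhg12, in 3 of the 9 promoter entries of 8 members (33.3%), and in 31.4% of 32851 promoter entries of all genes. No run of this length was found in the windows of the other 5 members with an entry.

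Total counts on genes lay between 21716042 and 26740832 per library, and their ranges overlapped between the conditions. The 9 libraries had no pair with identical values. Of the genes in the table, 16452 to 16871 had at least 1 count in an iso-osmolar library, 18920 to 19222 at 500 mOsm and 17846 to 18031 at 600 mOsm. All 8 fibroblast markers of the list were detected in every library. Marker levels are given in CPM, a share of each library's total counts, without the TMM factors that adjust the members' levels below. Thy1 and Col3a1 were the lowest, at 35.2 to 43.7 and 17.4 to 50.5 CPM, and Col1a1 the highest, at 8467 to 11898 CPM. The sum of the 8 was 20922 to 21659 CPM in iso-osmolar medium and 20765 to 21691 at 500 mOsm. At 600 mOsm it was 23712 to 24529 CPM, above all other libraries. The test called 1 of the 8 higher at 500 mOsm and 4 at 600 mOsm, where 13.2% and 15.1% of all tested genes were higher. Col3a1 alone among the 8 fell in both, with log2 fold changes of −1.27 and −0.65, where 14.8% and 20% of genes were lower. Of the markers of other cell types, the 3 epithelial genes summed to at most 0.0407 CPM in iso-osmolar medium, to 3.32 to 3.70 at 500 mOsm and to 0.0904 to 0.151 at 600 mOsm, nearly all from Cdh1, with Krt5 at 0 in all 9 libraries and Epcam at no more than 1 count. The 2 endothelial genes, Pecam1 and Cdh5, summed to 0.773 to 0.909 CPM in iso-osmolar medium, 11.2 to 12.7 at 500 mOsm and 1.99 to 3.21 at 600 mOsm. The rise came nearly all from Pecam1, which ran from 0.184 to 12.1 CPM, while Cdh5 stayed at 0.454 to 0.814 CPM over all 9 libraries. The 3 leukocyte genes never exceeded 0.262 CPM. Several of these marker levels moved with the treatment, and their part in the results was not tested.

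Per unit of length, the members' levels in iso-osmolar medium ranged over several-fold. Snhg15 was the most abundant at 42.2 ± 1.8 FPKM (reads scaled to the gene length and the library's total; SD, n = 3). Gas5 and Snhg5 followed at 25.6 ± 2.60 and 25.6 ± 1.77 FPKM, and their ranges overlapped. Snhg12 at 18.6 ± 1.73, Snhg6 at 17.6 ± 1.55 and Snhg1 at 16.1 ± 1.51 FPKM also overlapped, neighbour with neighbour. Snhg20 stood at 11.8 ± 1.41 FPKM and Snhg4 at 8.92 ± 0.604 FPKM, without overlap between them. These levels, and the order of the members by them, depend on the single length per gene that the authors used. For Gas5 it was 2556 bases, the length of an annotated form with a retained intron. Its transcripts without a retained intron have 346 to 665 bases. The length was 2719 bases for Snhg1 and 2153 bases for Snhg20, against 408 to 709 and 389 to 1090 bases for such transcripts. The tests below do not use the length.

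Together, the RNAs of the 8 tested members fell under both treatments. Their summed level was 240, 219 and 242 CPM in the 3 iso-osmolar libraries, 154, 149 and 148 CPM at 500 mOsm and 139, 136 and 135 CPM at 600 mOsm. No stressed library reached the lowest iso-osmolar library, and no 600 mOsm library reached the lowest 500 mOsm library. The means were 234 ± 12.7, 150 ± 3.0 and 136 ± 1.96 CPM (SD, n = 3). CPM values are shares of the RNA sequenced, so a lower share can also follow from a rise of other RNAs. Fewer cells carrying an RNA and less RNA per cell cannot be told apart either.

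**Figure D2:**
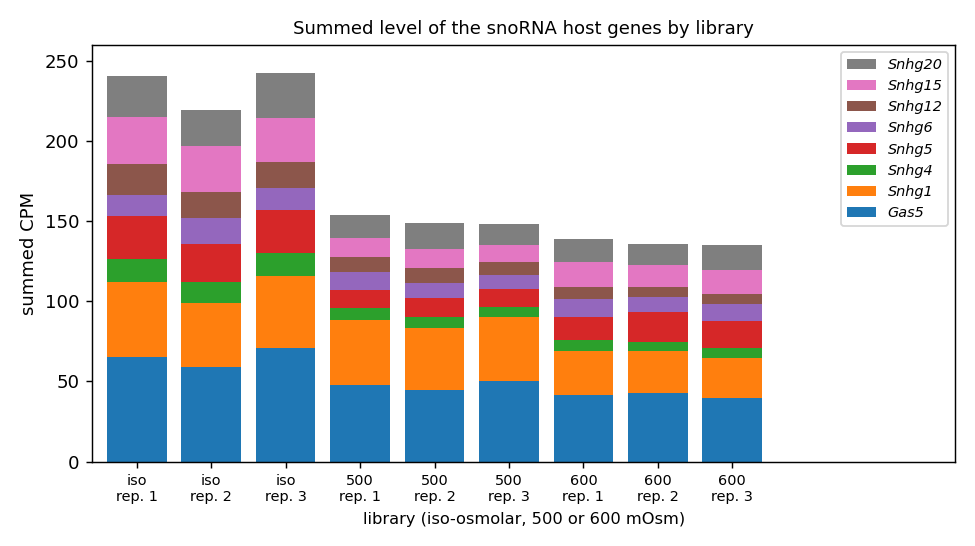
Summed level of the 8 tested members in each of the 9 libraries, in CPM, with 1 coloured segment per gene. The iso-osmolar libraries reach 219 to 242 CPM and the stressed libraries 135 to 154 CPM.

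At 500 mOsm, 7 of the 8 tested members were lower than in iso-osmolar medium and none was higher at an adjusted p under 0.05 (edgeR's quasi-likelihood test with Benjamini-Hochberg adjustment over 13082 genes). In the same comparison 14.8% of all tested genes were lower and 13.2% were higher. The members' median log2 fold change was −0.88, against 0.01 for all tested genes. At 600 mOsm, 8 of 8 members were lower and none was higher, where 20% of all genes were lower and 15.1% higher, with a median log2 fold change of −0.79 against 0.01. The 7 members lower at 500 mOsm were also lower at 600 mOsm, a pattern found for 9.12% of all genes. Both comparisons share the iso-osmolar libraries. By the levels alone, every 500 mOsm library lay below every iso-osmolar library for 7 members, where 20.8% of genes did so and 20.1% did the opposite. At 600 mOsm this held for 8 members, where 25.5% of genes did so and 23.0% did the opposite.

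**Figure D3:**
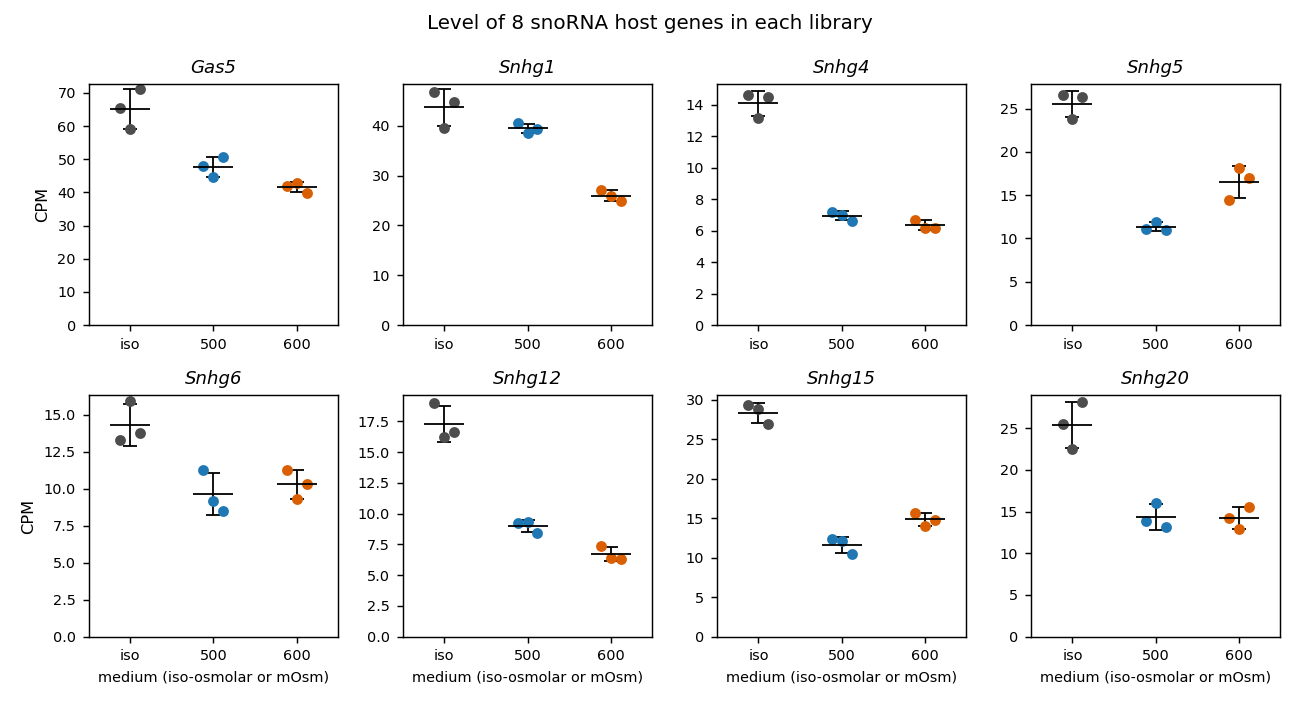
Level of the 8 tested members in each library, in CPM, by medium (iso-osmolar, 500 or 600 mOsm). Points are libraries, the horizontal line is the mean of 3 and the bar its SD. Each panel starts at 0 and has its own scale. Only for Snhg1 at 500 mOsm do the points overlap those in iso-osmolar medium.

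Of the hosts of box C/D snoRNAs, Gas5 (growth arrest-specific 5, chr1:161034422-161038539, plus strand, mm10) was the most abundant by read share. Its RNA is known to accumulate in growth-arrested cells. The iso-osmolar libraries held 65.3, 59.1 and 71.2 CPM, those of 500 mOsm held 48, 44.6 and 50.5 CPM and those of 600 mOsm held 41.8, 42.8 and 39.8 CPM. The 3 conditions formed 3 separate ranges, in the order of the osmolarity. The log2 fold change was −0.45 ± 0.07 (SE) at 500 mOsm (adjusted p = 0.000503) and −0.65 ± 0.07 at 600 mOsm (adjusted p = 2.96e-05). It fell by 26.8% at the milder treatment and fell by 36.4% at the stronger one. Between the treatments the difference of −0.20 ± 0.08 did not pass (adjusted p = 0.0606), but it passed without iso-osmolar replicate 2 (adjusted p = 0.0450) or without 500 mOsm replicate 2 (adjusted p = 0.0447). The annotated bounds of Gas5 overlap those of Zbtb37 on the other strand by 428 bases. Zbtb37 had 21 to 69 counts per library, against 956 to 1740 for Gas5. Zbtb37 itself changed by −0.83 ± 0.27 on the log2 scale at 500 mOsm (adjusted p = 0.0348) and by −0.67 ± 0.27 at 600 mOsm (adjusted p = 0.0681). Whether the counting used the strand is not given in the sources used here.

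Snhg1 (chr19:8723496-8726442, plus strand), which shares its start region with Slc3a2 on the opposite strand, was the one member whose level at 500 mOsm was not called. It measured 46.7, 39.6 and 44.7 CPM in iso-osmolar medium and 40.5, 38.6 and 39.4 CPM at 500 mOsm, so that these ranges overlapped. At 600 mOsm it measured 27.1, 25.9 and 24.9 CPM, below every other library. The log2 fold change at 500 mOsm was −0.14 ± 0.07 (adjusted p = 0.156), and it passed without iso-osmolar replicate 2, at −0.21 (adjusted p = 0.0456), and with offsets for gene length, at −0.26 (adjusted p = 0.0125). At 600 mOsm it fell by 40.5% against iso-osmolar medium (log2 fold change −0.75 ± 0.07, adjusted p = 7.13e-06) and fell by 34.2% against 500 mOsm (−0.60 ± 0.07, adjusted p = 4.81e-05). Slc3a2, which encodes the heavy chain of an amino acid transporter, changed by −0.20 ± 0.05 on the log2 scale at 500 mOsm (adjusted p = 0.00570). Its value at 600 mOsm was −0.09 ± 0.05 (adjusted p = 0.157).

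Snhg5 (chr9:88521050-88522929, minus strand), the host of the Snord50 pair printed above, had its lowest level at the milder treatment. It stood at 26.5, 23.8 and 26.3 CPM without stress, 11.1, 12 and 11 CPM at 500 mOsm and 14.4, 18.1 and 17 CPM at 600 mOsm. The 3 ranges were separate, with 600 mOsm in the middle. Snhg5 fell by 55.5% at 500 mOsm (log2 fold change −1.17 ± 0.10, adjusted p = 1.34e-06) and fell by 35.4% at 600 mOsm (−0.63 ± 0.09, adjusted p = 0.000231), and it was 1.45 times higher at 600 than at 500 mOsm (0.54 ± 0.10, adjusted p = 0.00112).

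Snhg6 (chr1:9941959-9944118, minus strand), the host of Snord87, fell to a like extent under both treatments. Its levels were 13.3, 15.9 and 13.7 CPM in iso-osmolar medium, 11.3, 9.20 and 8.50 CPM at 500 mOsm and 11.3, 9.31 and 10.3 CPM at 600 mOsm. The stressed libraries overlapped each other and lay below all 3 iso-osmolar libraries. The log2 fold changes were −0.57 ± 0.12 at 500 mOsm (adjusted p = 0.00326) and −0.48 ± 0.12 at 600 mOsm (adjusted p = 0.00929). The difference between the treatments was 0.10 ± 0.12 (adjusted p = 0.612). Snhg6 had 208 to 389 counts per library and the largest standard errors of the 8 members in each comparison.

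Snhg12 (chr4:132308678-132311024, plus strand), which hosts snoRNAs of both classes, showed the largest fall of the 8 at 600 mOsm. It stood at 19, 16.2 and 16.7 CPM in iso-osmolar medium, 9.22, 9.31 and 8.47 CPM at 500 mOsm and 7.41, 6.40 and 6.34 CPM at 600 mOsm. Here the 3 ranges were separate and followed the osmolarity. Snhg12 fell by 47.9% at 500 mOsm (log2 fold change −0.94 ± 0.10, adjusted p = 1.26e-05), fell by 61.1% at 600 mOsm (−1.36 ± 0.10, adjusted p = 7.68e-07) and fell by 25.3% from 500 to 600 mOsm (−0.42 ± 0.11, adjusted p = 0.00967).

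Snhg15 (chr11:6525591-6528760, minus strand), the host of Snora9 printed above, had the largest fall of the 8 at 500 mOsm. The libraries gave 29.3, 28.8 and 26.9 CPM in iso-osmolar medium, 12.4, 12.1 and 10.4 CPM at 500 mOsm and 15.7, 14.1 and 14.8 CPM at 600 mOsm. As for Snhg5, the 600 mOsm range lay between the others without touching either. It fell by 59% at 500 mOsm (log2 fold change −1.29 ± 0.09, adjusted p = 2.61e-07) and fell by 47.6% at 600 mOsm (−0.93 ± 0.09, adjusted p = 4.48e-06), and the level at 600 mOsm was 1.28 times that at 500 mOsm (0.35 ± 0.09, adjusted p = 0.00975).

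Snhg20 (chr11:117076790-117078955, plus strand) was at about the same level under both treatments. It measured 25.5, 22.5 and 28.1 CPM in iso-osmolar medium, 13.9, 16.0 and 13.1 CPM at 500 mOsm and 14.2, 12.8 and 15.5 CPM at 600 mOsm. All stressed libraries were below the iso-osmolar ones and overlapped each other. The log2 fold changes were −0.82 ± 0.11 at 500 mOsm (adjusted p = 8.32e-05) and −0.83 ± 0.11 at 600 mOsm (adjusted p = 8.49e-05), and −0.01 ± 0.11 between the treatments (adjusted p = 0.951), a difference whose sign depended on the processing.

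Snhg4 (chr18:35553371-35558316, plus strand), known as a host of a box H/ACA snoRNA, had the lowest mean read share of the 8 in each condition. Snhg4 overlapped Snhg6 in iso-osmolar medium and Snhg12 at 600 mOsm, and it fell to less than 50% of its iso-osmolar mean. It stood at 14.6, 13.2 and 14.5 CPM in iso-osmolar medium, 7.17, 7.01 and 6.64 CPM at 500 mOsm and 6.70, 6.18 and 6.19 CPM at 600 mOsm. The stressed libraries overlapped between the treatments. Log2 fold changes were −1.02 ± 0.09 at 500 mOsm (adjusted p = 3.34e-06), −1.15 ± 0.09 at 600 mOsm (adjusted p = 1.61e-06) and −0.13 ± 0.10 between the treatments (adjusted p = 0.372). Another annotated gene on the same strand overlaps 4913 bases of its bounds and had 2 to 7 counts per library.

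Snhg3, which hosts Snora73a and Snora73b, had 0 counts in every library, where the limit of 3 counts that a count of 0 allows is 0.112 to 0.138 CPM and covers counting error only. Its bounds (chr4:132348014-132353686, minus strand) overlap those of Rcc1 on the same strand by 5592 bases, and in GENCODE 135 of its 986 exonic bases (13.7%) are also exonic in Rcc1. Rcc1, which encodes a nucleotide exchange factor of the GTPase Ran, had 4869 to 7266 counts per library. How reads on overlapping genes were assigned is not given in the sources used here, so the 0 is a value of the table and not a measured absence of the RNA.

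**Figure D4:**
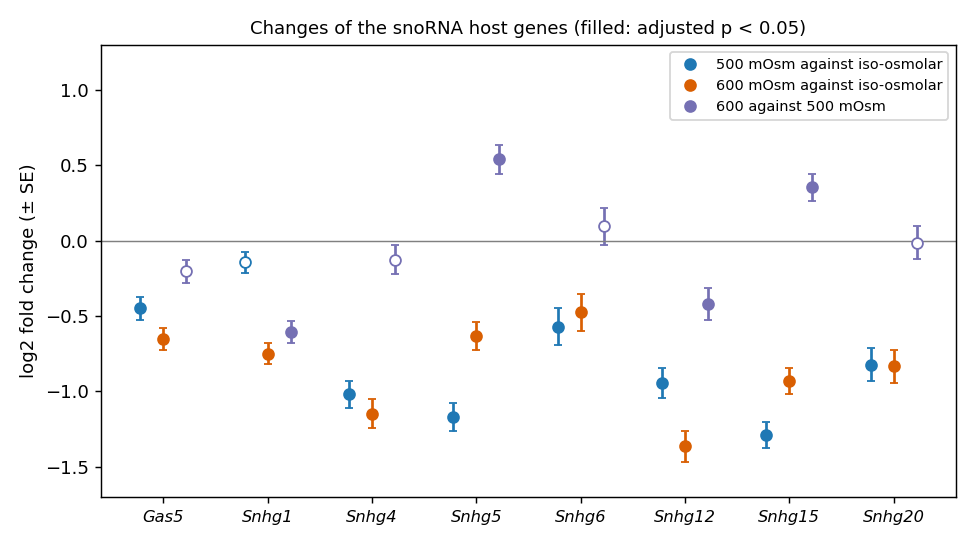
Log2 fold changes of the 8 tested members with their standard errors in the 3 comparisons, 500 mOsm and 600 mOsm against iso-osmolar medium and 600 against 500 mOsm. Filled points passed an adjusted p of 0.05. The values against iso-osmolar medium run from −1.36 to −0.14, and those between the treatments from −0.60 to 0.54.

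Between the 2 treatments the members did not move together. At 600 against 500 mOsm, 2 of 8 were higher (Snhg5 and Snhg15) and 2 of 8 were lower (Snhg1 and Snhg12), where 11.9% of all tested genes were higher and 17.2% were lower. The 4 others, Gas5, Snhg4, Snhg6 and Snhg20, did not pass. Every 600 mOsm library lay above every 500 mOsm library for 2 members, where 19.2% of genes did so, and below for 3 members, where 22.3% of genes did so. The median log2 fold change was −0.07, against 0.01 for all genes.

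The related genes were described by lists of symbols. Of 12 other non-coding snoRNA hosts, 10 were tested, and at 500 mOsm 5 were lower and 1 was higher, with a median log2 fold change of −0.24. At 600 mOsm 4 were lower and 1 was higher, with a median of −0.29. The shares of all tested genes lower and higher were 14.8% and 13.2% at 500 mOsm, and 20% and 15.1% at 600 mOsm. Snhg17 averaged 50.3 CPM in the iso-osmolar libraries and 19.2 and 20.8 CPM in those of 500 and 600 mOsm. This is −1.39 ± 0.07 at 500 mOsm (adjusted p = 1.8e-08) and −1.27 ± 0.07 at 600 mOsm (adjusted p = 5.48e-08) on the log2 scale. Snhg16 fell from 16.0 CPM to 6.62 and 6.23 CPM, and Dancr from 9.92 CPM to 6.19 and 5.09 CPM. Zfas1 changed less, by −0.30 and −0.36 on the log2 scale. Snhg7 was the member of this list that was higher at 500 mOsm (log2 fold change 0.28 ± 0.08, adjusted p = 0.0186), and Snhg18 the one higher at 600 mOsm (0.35 ± 0.11, adjusted p = 0.0263). Rian, Snhg9 and Snhg14 passed in neither comparison. Between the treatments 1 of the 10, Epb41l4aos, passed, at 0.24 ± 0.08 (adjusted p = 0.0485), where 11.9% of all genes were higher and 17.2% lower.

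Protein-coding genes that also carry snoRNAs in their introns, most of them genes of ribosomal proteins and of the translation machinery, did not show these falls. Of 38 tested, 1 was higher and 2 were lower at 500 mOsm, with a median log2 fold change of 0.02. At 600 mOsm 23 were higher and 2 were lower, with a median of 0.17, and against 500 mOsm 19 were higher and 2 lower. Of all tested genes, 13.2% were higher and 14.8% lower at 500 mOsm, and 15.1% and 20% at 600 mOsm. For 600 against 500 mOsm these shares were 11.9% and 17.2%. The ribosomal protein genes Rpl21, Rps12 and Rpl5 rose at 600 mOsm by 0.32 ± 0.04, 0.31 ± 0.04 and 0.28 ± 0.04 on the log2 scale, and their adjusted p were 7.67e-05, 0.000120 and 0.000422. Rps12 also rose at 500 mOsm, by 0.16 ± 0.04 (adjusted p = 0.0127). Prrc2a, an RNA-binding protein gene, was lower at 600 than at 500 mOsm (−0.58 ± 0.09, adjusted p = 0.000256).

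**Figure D5:**
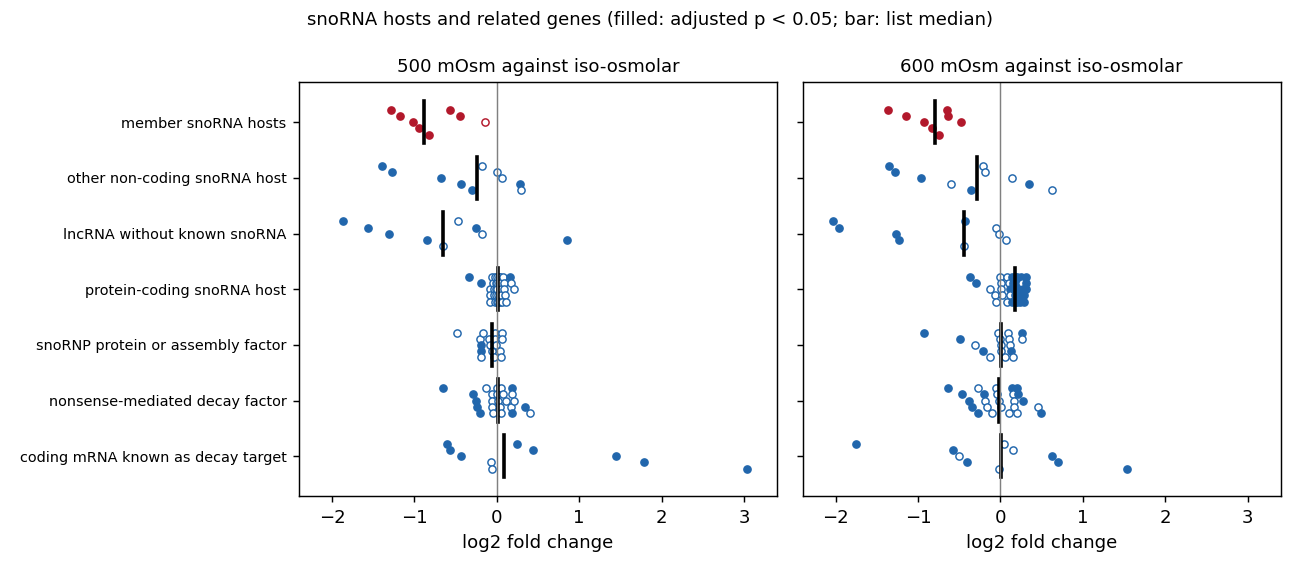
Log2 fold changes of the 8 members (red) and of 6 lists of related genes (blue) at 500 and 600 mOsm against iso-osmolar medium. Each point is a gene, filled where its adjusted p was under 0.05, and the black bar is the list's median, −0.88 and −0.79 for the members and 0.02 and 0.17 for the protein-coding hosts.

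Among genes of the proteins that act on these RNAs, those of the decay pathway were called in both directions under both treatments. Those of snoRNPs were called in both directions at 600 mOsm only. Of 25 genes of the nonsense-mediated decay machinery, 5 fell and 3 rose at 500 mOsm, while 6 fell and 5 rose at 600 mOsm, with medians of 0.01 and −0.01. Among all tested genes 14.8% were lower and 13.2% higher at 500 mOsm, against 20% and 15.1% at 600 mOsm. Upf1, the central helicase of the pathway, was not called in either comparison (log2 fold changes −0.06 ± 0.05 and −0.10 ± 0.05). Smg8, a subunit of the kinase complex that acts on UPF1, fell by 0.65 ± 0.07 at 500 mOsm (adjusted p = 2.06e-05), and Smg6, the endonuclease of the pathway, rose by 0.35 ± 0.06 (adjusted p = 0.000396). At 600 mOsm Dcp2, the decapping enzyme, fell by 0.64 ± 0.08 (adjusted p = 7.98e-05) and Etf1, the translation release factor, fell by 0.47 ± 0.07 (adjusted p = 0.000376). Of 17 genes of snoRNP proteins and their assembly factors, 2 fell and 0 rose at 500 mOsm, while 3 fell and 2 rose at 600 mOsm. Naf1, an assembly factor of H/ACA particles, fell by 0.92 ± 0.10 at 600 mOsm (adjusted p = 2.37e-05), and Gar1, a core protein of the same particles, fell by 0.49 ± 0.06 (adjusted p = 7.76e-05). Nop56, a core protein of C/D particles and itself a host, fell by 0.19 ± 0.04 at 500 mOsm (adjusted p = 0.00544).

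Coding mRNAs known as decay targets moved in both directions. Of 10 tested, 5 rose and 3 fell at 500 mOsm, while 3 rose and 3 fell at 600 mOsm, with medians of 0.09 and 0.01. Over all tested genes, 13.2% were higher and 14.8% lower at 500 mOsm, and 15.1% and 20% at 600 mOsm. Gadd45b, a stress-response gene, rose by 1.44 ± 0.05 and 1.54 ± 0.05 on the log2 scale. Atf3, a transcription factor of the stress response, rose by 3.04 ± 0.15 at 500 mOsm, from a mean of 2.56 to 21.1 CPM, and stood at 3.96 CPM at 600 mOsm. Gadd45a rose at 500 mOsm, from 3.12 to 10.7 CPM, and was at 2.35 CPM at 600 mOsm. Cdkn1a, which encodes the cell cycle inhibitor p21, fell by 1.75 ± 0.12 at 600 mOsm (adjusted p = 4.19e-07), from 16.1 to 4.77 CPM.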

How the data were processed

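RNA-seq of 9 libraries, 3 per condition, was analysed from the table that the authors deposited, which gives the read count of each gene in each library, not normalized, and the FPKM, which the authors computed from the count with the gene length. According to the submitters' processing notes, CASAVA 1.8 and STAR were used, with the genome build mm10. The version of STAR, the counting tool and its treatment of strand and of overlapping genes are not given in the sources used here. The table's columns of fold changes and p-values between conditions, which are the authors' own comparisons, were not used.

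Counts of all 9 libraries were normalized by TMM (factors 0.974 to 1.013) and tested in R 4.3.3 with edgeR 4.0.16 (quasi-likelihood, condition as the only factor) on 13082 genes kept by filterByExpr. Benjamini-Hochberg adjustment ran across these genes, and 0.05 was the threshold. The common biological coefficient of variation was 0.0756. CPM values use the TMM factors, except those of the cell type markers and of the limit for a count of 0. These use the library's total counts alone, and FPKM only the authors' scaling. Every member was named, and of each list up to 3 genes per comparison with the smallest p among those past the threshold, with Upf1, Zfas1, Snhg7, Snhg18, Rian, Snhg9 and Snhg14 added after their values were seen. The 5 most similar genes were those with the highest Pearson r to the members' mean standardized log2 CPM, among genes with a mean log2 CPM of at least 1. The members and the lists were chosen with earlier results of these data known. The alternatives were RLE factors, the library size alone, offsets for gene length, no filter, at least 10 counts in every library, DESeq2 1.42.0, limma 3.58.1 on log2(FPKM + 1) and log2(FPKM + 0.1), a fit of only the pair of groups in question, a block for the replicate number, an adjusted p under 0.01, a minimum size of 1 for the log2 fold change and each library left out in turn. Counting only rows found by the member's symbol was added after the data were seen. The tests were checked on simulated data. Transcripts, exons and snoRNAs are those of GENCODE vM21, and start sites those of RefSeq for GRCm38.p6, the build of the files. The annotation's Snhg1 carries another Ensembl identifier than the table's and was matched by name.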

Additional observations from a re-analysis of the deposited data

How the results depend on the processing

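Of 504 values (8 members, 3 comparisons and 21 alternatives), 482 kept their direction and their side of the threshold. The falls against iso-osmolar medium kept their direction under every alternative. The counts of members lower against iso-osmolar medium moved by more than 1.5 times only where the log2 fold change had to reach a size of 1, to 3 at 500 mOsm and 2 at 600 mOsm, and 600 against 500 mOsm then had 0 higher and 0 lower. All 14 losses of a call came from that requirement. With rows found by symbol only, which leaves out Snhg15 and Snhg20, 5 members were lower at 500 mOsm and 6 at 600 mOsm. In that setting 1 member was higher at 600 than at 500 mOsm. With 1 library left out, 7 to 8 members were lower at 500 mOsm and 8 at 600 mOsm, and 2 were higher and 2 to 3 lower between the treatments. Calls were gained for Snhg1 at 500 mOsm and Gas5 between the treatments, as given above. The difference of Snhg20 between the treatments, of −0.01, became 0.071 with length offsets and 0.0091 with no filter, and lay between −0.081 and 0.085 with 1 library left out (positive without 500 mOsm replicate 2 or 600 mOsm replicate 2). Length offsets moved the median log2 fold change of all genes to −0.10 at 500 mOsm and 0.11 between the treatments. The share of all genes called higher and lower became 9.77% and 25.2% at 500 mOsm, and 22.8% and 11.2% between the treatments.

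Same-numbered libraries did not deviate together (correlations from −0.54 to 0.46, mean −0.20, over 9 pairs), so the numbers were not taken as pairs. With the replicate block, 7 members were lower at 500 mOsm and 8 at 600 mOsm, and 2 were higher and 2 lower between the treatments, with no call changed. The tested members had 138 to 1740 counts per library. Their standard errors of 0.07 to 0.12 on the log2 scale, from 3 libraries per condition, limit which differences between the treatments could be called.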

Other observations

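Long non-coding RNAs with no known snoRNA were also lower in part. Of 9 tested, 5 were lower and 1 was higher at 500 mOsm, with a median log2 fold change of −0.66. At 600 mOsm 5 were lower and 0 higher, with a median of −0.45. In the same comparisons 14.8% and 20% of all tested genes were lower, and 13.2% and 15.1% were higher. Neat1, the scaffold RNA of paraspeckles, changed by −1.87 ± 0.14 and −2.04 ± 0.14 on the log2 scale, from a mean of 73.8 CPM to 20.2 and 18.0 CPM. Mir22hg, the host of a microRNA, changed by −1.56 ± 0.14 and −1.96 ± 0.14. Oip5os1 changed by −0.85 ± 0.11 and −0.43 ± 0.11 and was higher at 600 than at 500 mOsm, by 0.41 ± 0.11 (adjusted p = 0.0129). Pvt1 was also higher at 600 than at 500 mOsm, by 0.24 ± 0.07 (adjusted p = 0.0181). The median of this list at 500 mOsm lay between those of the members and of the other non-coding snoRNA hosts, and the lists were not tested against each other.

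Among 10302 genes with a mean log2 CPM of at least 1, those whose level followed the members' mean most closely over the 9 libraries were Syne3 (r = 0.996), Tnc (0.993), Wnt11 (0.993), Ndrg1 (0.992) and Kdm6b (0.991). The 9 points share libraries and fall into 3 conditions, so the correlation is a description of a pattern and has no p. Mean levels of Syne3, which encodes a nuclear envelope protein, were 78.4 CPM (iso-osmolar), 37.3 CPM (500 mOsm) and 35.4 CPM (600 mOsm). Those of Tnc, which encodes the matrix protein tenascin C, were 104 (iso-osmolar), 63.5 and 59.0 CPM. Wnt11, a signalling ligand gene, stood at 11.7, 2.32 and 1.56 CPM. Ndrg1 stood at 55.1, 26.0 and 23.3 CPM, and Kdm6b, a histone demethylase gene, at 106, 43.6 and 38.4 CPM.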
